A study of Mus musculus with 21 samples.

Results

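The genes described here are those of MHC class II antigen presentation: the chains H2-Aa, H2-Ab1 and H2-Eb1, the invariant chain Cd74, the peptide exchange factor subunits H2-DMa, H2-DMb1 and H2-DMb2, and the transactivator Ciita. They were chosen by name, and they are 8 of the 54123 genes to which transcripts were added up. RNA was sequenced from PMNs (polymorphonuclear neutrophils, labelled as blood) and TECs (kidney tubular epithelial cells) of wildtype mice, with cells taken 24 hours after surgery. Surgery was either IRI (ischemia-reperfusion injury, made by clamping the renal pedicles) or sham, and each was preceded by RIPC (remote ischemic preconditioning, in which a cuff on the hind limb is inflated repeatedly) or by the control procedure. All mice had surgery, so no group is untreated. PMNs gave 2 sham control, 3 sham RIPC, 2 IRI control and 3 IRI RIPC libraries, and TECs gave 3, 3, 2 and 3, which makes 21 libraries. By the methods of the study, the mice were C57BL/6, a strain in which H2-Ea is not functional, so the product of H2-Eb1 lacks its usual partner.

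MHC class II molecules show peptides from engulfed material to CD4+ T cells. In the endoplasmic reticulum the α and β chains assemble with the invariant chain, which guides them to endosomes and blocks the groove. There proteases trim the invariant chain, and H2-DM exchanges the remaining fragment for peptide. The genes are switched on together by CIITA, which binds no DNA itself but docks on factors (RFX, CREB and NF-Y) that sit on the X and Y boxes of their promoters. Dendritic cells, B cells and macrophages are the usual sources, and interferon gamma induces the genes in many other cells, tubular epithelium included. Resting neutrophils are known for little class II.

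H2-DMa lies on chr17:34119541-34139101, H2-DMb2 on chr17:34143307-34151555, H2-DMb1 on chr17:34153072-34160230, H2-Ab1 on chr17:34257689-34269419, H2-Aa on chr17:34282744-34287823 (reverse strand) and H2-Eb1 on chr17:34305867-34316674, all in GRCm38, so 6 of the genes are neighbors in the MHC. Ciita lies on chr16:10480059-10528418. Of the 8 genes, 5 had an entry in the RefSeq promoter table of GRCm38.p6 (H2-Aa, H2-Eb1, H2-DMa, H2-DMb1 and H2-DMb2). The 100 bases from 130 to 31 before the start are shown for the 4 genes that held a Y box core, because these boxes are where the shared regulator is known to act. Capitals mark TGATTGG, the Y box core, and AACNNATGA, letters of the X box that were chosen after these promoters had been read. Each is printed 5′ to 3′ on the strand of its gene.
H2-Aa (chr17:34287854-34287953, reverse strand): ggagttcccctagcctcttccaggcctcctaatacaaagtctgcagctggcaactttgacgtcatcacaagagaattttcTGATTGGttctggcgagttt
H2-Eb1 (chr17:34305737-34305836, forward strand): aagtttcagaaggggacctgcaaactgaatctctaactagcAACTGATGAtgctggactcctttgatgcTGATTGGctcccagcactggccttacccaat
H2-DMb1 (chr17:34153061-34153160, forward strand): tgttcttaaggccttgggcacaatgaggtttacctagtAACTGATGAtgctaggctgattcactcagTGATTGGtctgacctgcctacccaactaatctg
H2-DMb2 (chr17:34145119-34145218, forward strand): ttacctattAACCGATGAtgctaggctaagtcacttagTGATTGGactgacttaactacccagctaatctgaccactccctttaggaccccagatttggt

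These starts are those of the RefSeq table, which for H2-DMb1 and H2-DMb2 lie inside the gene spans given above. TGATTGG began 50 bases before the start in H2-Aa, 61 in H2-Eb1, 63 in H2-DMb1 and 92 in H2-DMb2. AACNNATGA began 28 bases before TGATTGG in H2-Eb1 and 29 bases before it in H2-DMb1 and in H2-DMb2, and the motifs did not overlap. Searched on both strands of the 250 bases before the start, TGATTGG was held by 7.23% of all 32851 promoters, AACNNATGA by 2.49%, and both by 0.265%. Neither was found before the starts listed for H2-DMa, which says only that these letters are not in those windows.

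Reads are given per library as CPM (reads of a gene relative to the library's total, which was scaled by TMM within a cell type), and levels of different genes are compared only as TPM, which accounts for transcript length. Libraries held 20881334 to 30507235 reads in PMNs and 21479605 to 51624602 in TECs. The PMN libraries carried 10 neutrophil markers, which summed to 5649 to 24761 CPM after sham surgery (median 9269) and 11753 to 30954 CPM after IRI (median 18856), against 1.80 to 110 CPM in TECs. The part of this shift in the results below was not tested. They also carried 10 proximal tubule markers at 418 to 4012 CPM after sham surgery and 266 to 410 CPM after IRI, most of all in sham control replicate 2. The same markers summed to 1422 to 15746 CPM in TECs. Counts of called genes that rest on it were therefore also taken without it: they were 5 in place of 6 for IRI against sham surgery in PMNs (averaged over RIPC and control), and stayed at 0 for that comparison without RIPC, for RIPC after sham surgery, for the interaction and for the difference between cell types, and at 7 for TECs against PMNs. The ratios, isoform shares, marker levels and correlations were not recomputed without it.

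In PMNs, class II transcripts were abundant after sham surgery. H2-Aa, H2-Ab1, H2-Eb1, Cd74, H2-DMa and H2-DMb1 fell after IRI, to levels 6.41-fold (Cd74) to 14.0-fold (H2-DMa) lower, and every IRI library lay below every sham library for each of them. H2-DMb2 and Ciita had libraries that overlapped and did not pass the test. RIPC moved none of the 8 past the edgeR test in either cell type.

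The chains come first. H2-Ab1, the β chain of I-A, stood at 3354 and 7094 CPM in the sham control libraries and at 7671, 11451 and 4145 CPM in the sham RIPC libraries. After IRI it stood at 527 and 389 CPM without RIPC and at 753, 416 and 369 CPM with RIPC. The highest IRI library was thus far below the lowest sham library, and after IRI both the highest and the lowest library had RIPC, while after sham surgery the lowest was a control library. Averaged over RIPC and control, H2-Ab1 was 13.1-fold lower after IRI (log2 fold change -3.72 ± 0.389 SE, edgeR quasi-likelihood test with Benjamini-Hochberg adjustment over all genes tested, adjusted p = 0.00879).

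H2-Aa, the α chain of I-A, was also lower in every IRI library than in every sham library. It stood at 2077 and 3431 CPM (sham control), 4799, 5558 and 2388 CPM (sham RIPC), 379 and 353 CPM (IRI control) and 532, 348 and 284 CPM (IRI RIPC). The fit put it 9.08-fold lower after IRI (log2 fold change -3.18 ± 0.316 SE, edgeR adjusted p = 0.00879). H2-Eb1, the β chain of I-E, stood at 2318 and 3255 CPM, then 4902, 5887 and 2413 CPM, then 307 and 353 CPM, and then 559, 209 and 190.3 CPM in the same 4 groups. It was 10.8-fold lower after IRI (log2 fold change -3.43 ± 0.406 SE, edgeR adjusted p = 0.0178).

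Cd74, on chromosome 18, encodes the chaperone of the nascent chains and was the most abundant of the 8 genes. It stood at 10285 and 11367 CPM (sham control), 15375, 18864 and 7899 CPM (sham RIPC), 1956 and 1789.7 CPM (IRI control) and 3294, 1539.5 and 1098 CPM (IRI RIPC). Its sham and IRI libraries did not overlap either, and it was 6.41-fold lower after IRI (log2 fold change -2.68 ± 0.351 SE, edgeR adjusted p = 0.0222).

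H2-DMa and H2-DMb1 of the exchange factor fell too. H2-DMa, its α subunit, stood at 153 and 289 CPM (sham control), 359.9, 396 and 158 CPM (sham RIPC), 20.6 and 6.59 CPM (IRI control) and 37.5, 14.9 and 23.0 CPM (IRI RIPC), and was 14.0-fold lower after IRI (log2 fold change -3.81 ± 0.547 SE, edgeR adjusted p = 0.0294). H2-DMb1, a β subunit, stood at 185 and 458 CPM, 525, 854 and 243 CPM, 56.2 and 41.5 CPM, and 40.8, 73.2 and 39.2 CPM in those groups, and was 8.34-fold lower (log2 fold change -3.06 ± 0.475 SE, edgeR adjusted p = 0.0374). H2-DMb2, the other β subunit, was read far less, at 45.1 and 3.35 CPM, 40.6, 27.6 and 11.2 CPM, 7.17 and 6.44 CPM, and 21.6, 4.20 and 4.35 CPM. Its groups overlapped, and its log2 fold change of -1.61 ± 0.948 SE did not pass (edgeR adjusted p = 0.494). The 2 β subunit genes share 369 stretches of 50 bases, the length of a read, which is 22.7% of the stretches of H2-DMb1 and 21.2% of those of H2-DMb2, so some reads could be given to either gene. Their sum is free of that split, and it was 7.59-fold lower after IRI (log2 fold change -2.92 ± 0.434 SE, edgeR adjusted p = 0.0324).

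Ciita, the regulator, was scarce and uneven. It had 567 and 0 reads in the sham control libraries, 795, 2216 and 844 in the sham RIPC libraries, 591 and 233 in the IRI control libraries and 46, 88 and 15 in the IRI RIPC libraries. One sham control library without a read and an IRI control library of 591 reads made the groups overlap, and the log2 fold change of -2.15 ± 1.37 SE did not pass (edgeR adjusted p = 0.529). All 591 reads of that IRI control library were given to Ciita-207, a transcript annotated as a retained intron. Ciita-201, the coding form with most reads over the PMN libraries, had 275, 0, 795, 1727 and 568 reads in the sham libraries and 0, 47.9, 44.1, 0 and 15.0 in the IRI libraries. Other coding forms also took reads. Ciita-205 had 292 in sham control replicate 1 and 206.9 in sham RIPC replicate 3, and Ciita-203 had 489.5 in sham RIPC replicate 2 and 185.1 in IRI control replicate 2. These are estimates for transcripts that share most of their bases.

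**Figure D1:**
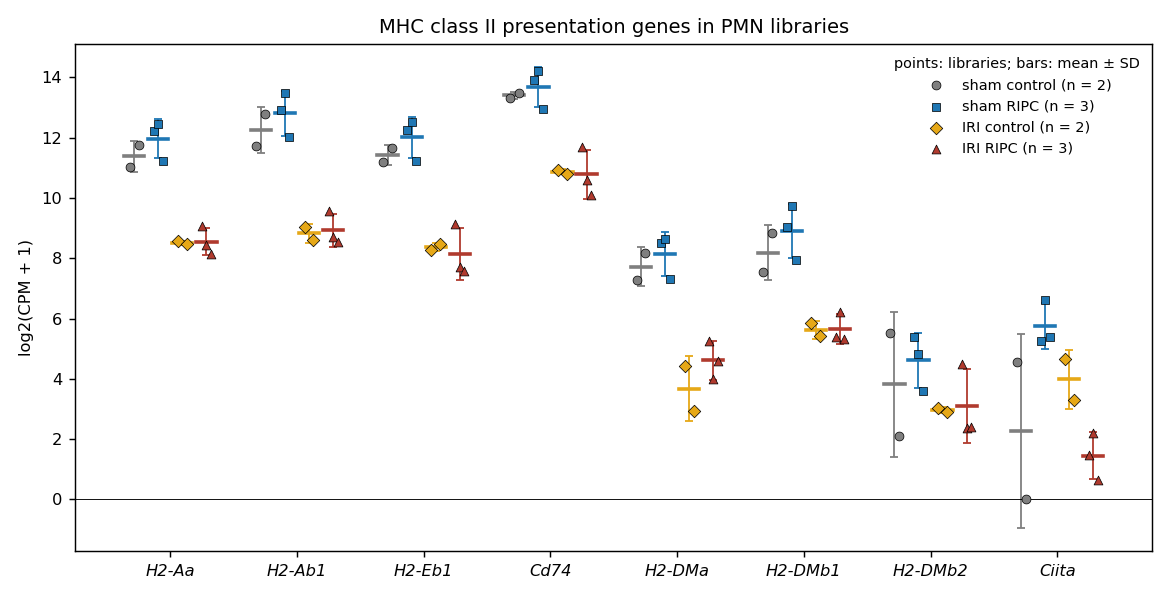
Level of each gene in the PMN libraries, as log2(CPM + 1), with a point for each library, by group (sham control n = 2, sham RIPC n = 3, IRI control n = 2, IRI RIPC n = 3) and the mean ± SD. For 6 of the 8 genes all 5 IRI libraries lie below all 5 sham libraries, while H2-DMb2 and Ciita overlap.

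Of the 8 genes, 6 were called lower after IRI in PMNs. Over all 25002 genes tested in PMNs, 104 were called in that comparison in either direction (0.416%), and 13 of them were lower (0.052%), so these 6 genes made up 6 of the 13. All IRI libraries lay below all sham libraries for 6 of the 8 genes and for 519 of the genes tested (2.08%). The median log2 fold change of the 8 genes was -3.12, and that of all genes tested was -0.0125. Without sham control replicate 2, which carried the most tubular RNA, 5 were called, with H2-DMb1 not (adjusted p = 0.0715). The calls depended on which library was left out: 6 were called without sham control replicate 1 or without sham RIPC replicate 3, 4 without sham RIPC replicate 1, without sham RIPC replicate 2 or without IRI RIPC replicate 1, 3 without either IRI control library, 2 without IRI RIPC replicate 3, and 0 without IRI RIPC replicate 2, where the edgeR adjusted p of the 6 genes ran from 0.0501 to 0.0886. With all libraries in the fit the same 6 had p under 0.05 before adjustment, as had 2958 of all genes tested, and DESeq2's Wald test also called 6, and 1955 of all.

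Split by preconditioning, these 6 genes had negative fitted values in both arms. With RIPC, 4 of the 8 genes were called lower (H2-Aa, H2-Ab1, H2-Eb1 and Cd74, log2 fold changes -3.45 ± 0.399, -3.92 ± 0.487, -3.78 ± 0.514 and -2.83 ± 0.442 SE, edgeR adjusted p = 0.0257, 0.0279, 0.0311 and 0.0487), against 62 of all genes tested in either direction (0.248%) and 7 lower (0.028%). Leaving out sham RIPC replicate 1 or 2 or IRI RIPC replicate 2 or 3 took this count to 0, leaving out IRI RIPC replicate 1 to 1, and leaving out sham RIPC replicate 3 to 2. Without RIPC, where 2 libraries faced 2, edgeR called 0 of the 8 and 0 of all genes tested (0%), although 6 of the 8 and 1113 of all genes had p under 0.05 before adjustment, and DESeq2's Wald test called 5 of the 8 and 739 of all. There H2-Aa had a log2 fold change of -2.91 ± 0.477 SE and H2-Ab1 of -3.51 ± 0.586 SE (both adjusted p = 0.378), and leaving out sham control replicate 1 took the count of calls to 2. The difference between the arms was tested as the interaction of RIPC and surgery, which edgeR called for 0 of the 8 genes and 0 of all (0%). No member had p under 0.05 in it before adjustment, and DESeq2 called 0 of the 8.

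The composition of the class II transcripts in PMNs was then compared within libraries, on the TPM scale. After sham surgery the order by median TPM was Cd74 (6052), H2-Ab1 (3986), H2-Aa (1980), H2-Eb1 (1914), H2-DMb1 (189), H2-DMa (178), H2-DMb2 (12.5) and Ciita (3.05). After IRI it was Cd74 (1007), H2-Ab1 (230), H2-Aa (210), H2-Eb1 (195), H2-DMb1 (19.2), H2-DMa (14.7), H2-DMb2 (2.85) and Ciita (0.549). The order of the medians was thus the same in both. Most neighbors in that order overlapped in their ranges across libraries, and those that did not were H2-Eb1 and H2-DMb1 under both surgeries, H2-DMa and H2-DMb2 after sham surgery, and Cd74 and H2-Ab1 after IRI. Within every PMN library, however, Cd74 stood above H2-Ab1 and H2-Ab1 above H2-Aa, while H2-Aa and H2-Eb1 changed places between libraries.

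The genes did not keep exactly fixed ratios. H2-Ab1 over H2-Aa in TPM ran from 1.52 to 2.03 in the 5 sham libraries and from 1.09 to 1.47 in the 5 IRI libraries, with no overlap (exact permutation test, two-sided, p = 0.00794, adjusted p = 0.0556 over 7 such comparisons). Cd74 over H2-Aa ran from 2.87 to 4.49 after sham surgery and from 3.72 to 5.62 after IRI (exact permutation p = 0.0238, adjusted p = 0.0833). H2-Eb1 over H2-Aa ran from 0.967 to 1.14 and from 0.607 to 1.04 (exact permutation p = 0.0397, adjusted p = 0.0926). None of the 7 passed 0.05 after adjustment. With 5 libraries against 5, an exact permutation p of 0.00794 is the smallest possible. A single ratio without overlap therefore could not pass after adjustment over 7, and the adjusted values do not decide whether H2-Ab1 over H2-Aa changed. H2-DMa over H2-Aa, with medians of 0.0787 and 0.0649, ran from 0.0196 to 0.141 after IRI (exact permutation p = 0.643, adjusted p = 0.75). H2-DMb1 over H2-DMa had medians of 1.06 and 1.67 (exact permutation p = 0.270, adjusted p = 0.378). H2-DMb2 made up a median share of 0.0413 of the TPM of both β subunit genes after sham surgery and 0.119 after IRI (exact permutation p = 0.206, adjusted p = 0.361).

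Cd74 is spliced into a short and a long form, and the long one carries an extra exon for a domain that inhibits proteases. In the annotation the short form (Cd74-201) has 215 codons before the stop and the long form (Cd74-202) has 64 more. The long form took 21.3% and 22.0% of the reads of both forms in the sham control PMN libraries, 20.8%, 24.5% and 20.6% in the sham RIPC libraries, 21.8% and 20.7% in the IRI control libraries and 16.6%, 20.7% and 27.4% in the IRI RIPC libraries. The IRI RIPC libraries held both the lowest and the highest share, and sham and IRI libraries overlapped (exact permutation test, two-sided, p = 0.833, also the adjusted value). A change in the share of the long form was not detectable with these libraries, while the reads of both forms were lower in every IRI library than in every sham library.

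RIPC itself made no called difference in PMNs. After sham surgery all 8 genes had fitted values above control (log2 fold changes from 0.13 to 2.39, smallest edgeR adjusted p = 0.705), and sham RIPC replicate 3 lay among or below the control libraries for all but Ciita. H2-Ab1, for example, had a log2 fold change of 0.57 ± 0.492 SE. After sham surgery Ciita stood at 22.4 and 0 CPM without RIPC and 37.5, 97.7 and 40.9 CPM with RIPC. After IRI it stood at 24.5 and 8.78 CPM without RIPC and 1.79, 3.62 and 0.577 CPM with RIPC. Its log2 fold changes of 2.39 ± 2.03 SE and -3.06 ± 1.88 SE did not pass (edgeR adjusted p = 0.817 and 0.920), nor did their difference (-5.45 ± 2.81 SE, adjusted p = 0.738). After sham surgery edgeR called 0 of the 8 genes and 1 of all genes tested (0.004%). After IRI the median log2 fold change of the 8 genes was 0.0818, and edgeR called 0 of them and 0 of all genes (0%). None of the 8 had p under 0.05 before adjustment in either comparison, and DESeq2 called 0 of the 8 in both.

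None of the other genes of the class II pathway passed the test in PMNs. Of 17 genes in a list of nonclassical chains, proteases, promoter factors and ubiquitin ligases, 16 were tested and 0 passed in the edgeR test (9 positive, 7 negative, median log2 fold change 0.308). Ctsl, a lysosomal protease that trims the invariant chain in some cells, stood at 223 to 324 CPM after sham surgery and at 486 to 777 CPM after IRI, with no overlap (log2 fold change 1.27 ± 0.216 SE, edgeR adjusted p = 0.0520). All IRI libraries lay above all sham libraries for 858 of the 25002 genes tested in PMNs (3.43%). Ctss, the protease best known for that step in antigen presenting cells, stood at 851 to 2689 CPM and 1228 to 1626 CPM, which overlapped (log2 fold change -0.59 ± 0.310 SE, adjusted p = 0.445). H2-Oa, a chain of the H2-DM antagonist H2-O, was read at 0 to 63.2 CPM and 0 to 11.2 CPM (adjusted p = 0.413), and Nfya, a subunit of the Y box factor, at 0 to 1.74 CPM and 1.62 to 27.2 CPM (adjusted p = 0.413). In the RIPC comparisons in PMNs edgeR also called 0 of these genes, after sham surgery and after IRI.

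The lists of interferon gamma signalling and MHC class I had positive medians. Of 7 tested genes of interferon gamma signalling 0 passed (6 positive, 1 negative, median log2 fold change 0.578). Jak1, a kinase of the receptor, had the smallest p among them, with 22.3 to 101 CPM after sham surgery and 80.2 to 242 CPM after IRI (edgeR adjusted p = 0.189), and Jak2, the other kinase of the receptor, stood at 0 to 13.3 CPM and 1.46 to 43.5 CPM (adjusted p = 0.402). Of 13 class I genes 0 passed (8 positive, 5 negative, median 0.399). H2-D1, a class I heavy chain, stood at 1126 to 2938 CPM after sham surgery and 3254 to 6469 CPM after IRI (log2 fold change 1.01 ± 0.288 SE, adjusted p = 0.257), and B2m, the light chain, stood at 1269 to 2875 CPM and 552 to 1842 CPM (log2 fold change -1.22 ± 0.376 SE, adjusted p = 0.305).

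Costimulatory genes held the one member called in these lists. Cd274, which encodes the checkpoint ligand PD-L1, rose from 0.511 to 31.8 CPM in the sham libraries to 83.9 to 399.8 CPM in the IRI libraries (log2 fold change 5.86 ± 0.903 SE, edgeR adjusted p = 0.0374). Cd80, which encodes a ligand of CD28, stood at 0.139 to 14.7 CPM and 68.1 to 168 CPM with no overlap (adjusted p = 0.111), and Pdcd1lg2, which encodes the checkpoint ligand PD-L2, stood at 0 to 0.197 CPM and 4.97 to 18.1 CPM, also with no overlap (adjusted p = 0.147). Such a separation upward was seen for 3.43% of all genes tested in PMNs. Of the 6 genes tested, 1 passed and was higher, with a list median of 3.12.

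**Figure D2:**
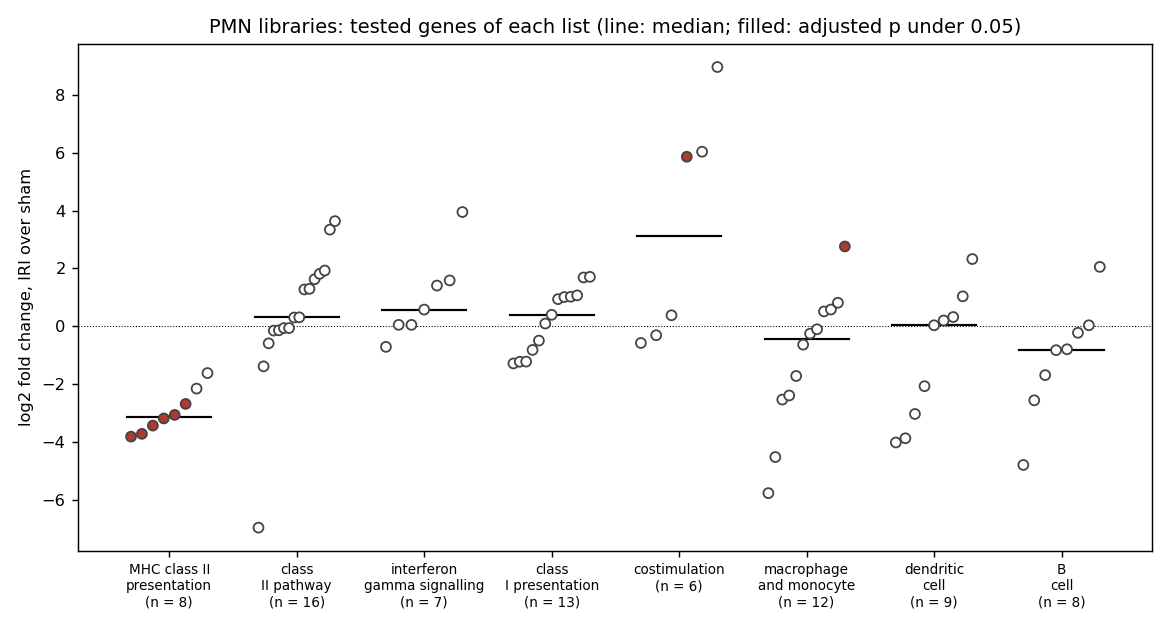
Fitted log2 fold change of IRI over sham surgery in PMN libraries for each tested gene of 8 lists, averaged over RIPC and control, with the median as a line and filled points for an edgeR adjusted p under 0.05. The class II presentation genes all lie below 0 (median -3.12), while the remaining class II pathway genes (median 0.308) and the class I genes (median 0.399) lie on both sides.

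Markers of other cells that carry class II moved with these genes in part. C1qa, C1qb and C1qc encode the complement subunits that tissue macrophages make, and none of them passed the test. C1qa stood at 867 to 2370 CPM after sham surgery and 66.2 to 371 CPM after IRI (log2 fold change -2.53 ± 0.492 SE, edgeR adjusted p = 0.0915), and C1qb at 1219 to 2977 CPM and 95.4 to 503 CPM (adjusted p = 0.0962). Neither of these overlapped between surgeries, whereas C1qc, at 145 to 1797 CPM and 10.2 to 259 CPM, did (adjusted p = 0.0871). Cx3cr1, a chemokine receptor of monocytes and resident macrophages, stood at 16.3 to 233 CPM and 0.124 to 9.25 CPM without overlap (adjusted p = 0.0696). Csf1r, the growth factor receptor of macrophages and monocytes, stood at 95.7 to 697 CPM and 176 to 426 CPM (adjusted p = 0.919), and Cd68, a lysosomal protein of macrophages, at 105 to 444 CPM and 189 to 266 CPM. Cd14, the endotoxin coreceptor, went the other way, from 512 to 2841 CPM up to 7895 to 11248 CPM, and was called (log2 fold change 2.76 ± 0.377 SE, adjusted p = 0.0256). The summed level of all 12 macrophage and monocyte genes was 3551 to 10753 CPM after sham surgery and 9524 to 13094 CPM after IRI. Cd14 made up most of that sum in each IRI library, so the sum does not give the direction of the list. Of the 12 genes 4 had positive and 8 negative fitted values (median log2 fold change -0.443), and 1 of 12 was called, higher.

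Dendritic cell genes gave 0 calls among 9 tested (5 positive, 4 negative, median log2 fold change 0.036), and their sum was 137 to 374 CPM after sham surgery and 300 to 595 CPM after IRI. Cd209a, a lectin of monocyte-derived dendritic cells, was read at 27.0 to 137 CPM and 0 to 12.1 CPM (adjusted p = 0.413), and Itgax, which encodes CD11c, at 20.6 to 83.1 CPM and 0 to 28.4 CPM (adjusted p = 0.414). Cd24a, which neutrophils also express, went the other way, at 12.1 to 118 CPM and 274 to 531 CPM (adjusted p = 0.126). It made up most of the summed level of the dendritic cell list in each IRI library, so that sum does not give the direction of the list. The B cell list summed to 74.3 to 320 CPM and 18.4 to 73.5 CPM, again with 0 calls. Its largest part was Ighm (19.5 to 263 CPM and 2.30 to 31.3 CPM), while Cd79a, a chain of the B cell receptor complex, had a median of 0 CPM in the sham libraries and Ms4a1 stood at 6.57 to 13.5 CPM. The part of these cells in the fall of the class II genes was not tested, and in sorted bulk libraries fewer cells of a type and less RNA per cell cannot be told apart.

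By a fixed rule, the genes most like the class II chains were those with the highest Pearson r to the mean log2(CPM + 1) of H2-Aa, H2-Ab1, H2-Eb1 and Cd74. In the 10 PMN libraries these were Mgl2 (r = 0.982), a lectin of macrophages and dendritic cells, then Gm14221, 2210011C24Rik, Clec4b1, Snhg6, Gm29683, Mrpl42, Scimp, Gm49181 and Gabrb2 (r = 0.954 for the last). Mgl2 stood at 99.8 to 487 CPM after sham surgery and 14.2 to 27.8 CPM after IRI, and Clec4b1, another lectin, at 7.26 to 59.9 CPM and 0 to 0.0388 CPM. Scimp, a transmembrane adaptor, stood at 19.8 to 233 CPM and 0 to 7.61 CPM. H2-DMa (r = 0.966) and H2-DMb1 (r = 0.958) were 8th and 14th among all genes tested, whereas H2-DMb2 (r = 0.587) and Ciita (r = 0.481) were not near the top. These correlations are descriptions: the libraries form a sham and an IRI cluster, and much of each r is the distance between those clusters.

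The same genes were read far less in TECs, where Cd74 and H2-DMb2 exceeded 3 reads in all 11 libraries and Ciita in 3. Averaged over the 4 groups, all 8 genes had fitted values below those of PMNs and 7 were called lower, against 2182 of 31769 genes called in either direction (6.87%) and 926 called lower (2.91%). The largest difference was that of H2-Eb1 (log2 fold change -9.92 ± 1.05 SE, edgeR adjusted p = 3.58e-06), followed by Cd74 (-6.27 ± 1.01) and H2-Aa (-6.23 ± 0.877). H2-DMb2 did not pass (log2 fold change -1.30 ± 0.707 SE, adjusted p = 0.383). The cell types also differ in the tissue named on their labels, so cell type, tissue and isolation cannot be told apart here. Of the PMN-rich lists, 12 of 12 macrophage and monocyte genes were also called lower in TECs.

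The largest TEC level was that of Cd74. It had 5, 1854 and 767 reads in the sham control libraries, 853, 282 and 1352 in the sham RIPC libraries, 3134 and 124 in the IRI control libraries and 23174, 8 and 2176 in the IRI RIPC libraries. H2-Ab1 had 196, 707 and 1038, then 134, 392 and 908, then 645 and 727, and then 9356, 2 and 1306 reads, and H2-Aa had 325, 237 and 375, then 370, 4 and 0, then 702 and 609, and then 2678, 124 and 412 reads. IRI RIPC replicate 1 therefore held the highest value for Cd74, H2-Ab1 and H2-Aa, and IRI RIPC replicate 2 the lowest for H2-Ab1. H2-DMa had 0, 200 and 271, then 101, 0 and 169, then 204 and 0, and then 342, 0 and 180 reads. H2-Eb1 had 1, 197 and 0, then 0, 10 and 7, then 5 and 5, and then 843, 95 and 514 reads. Ciita was read above 3 times in 3 of the 11 TEC libraries, all of them sham, and had 0 reads in both IRI control libraries and 2, 0 and 2 in the IRI RIPC libraries.

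**Figure D3:**
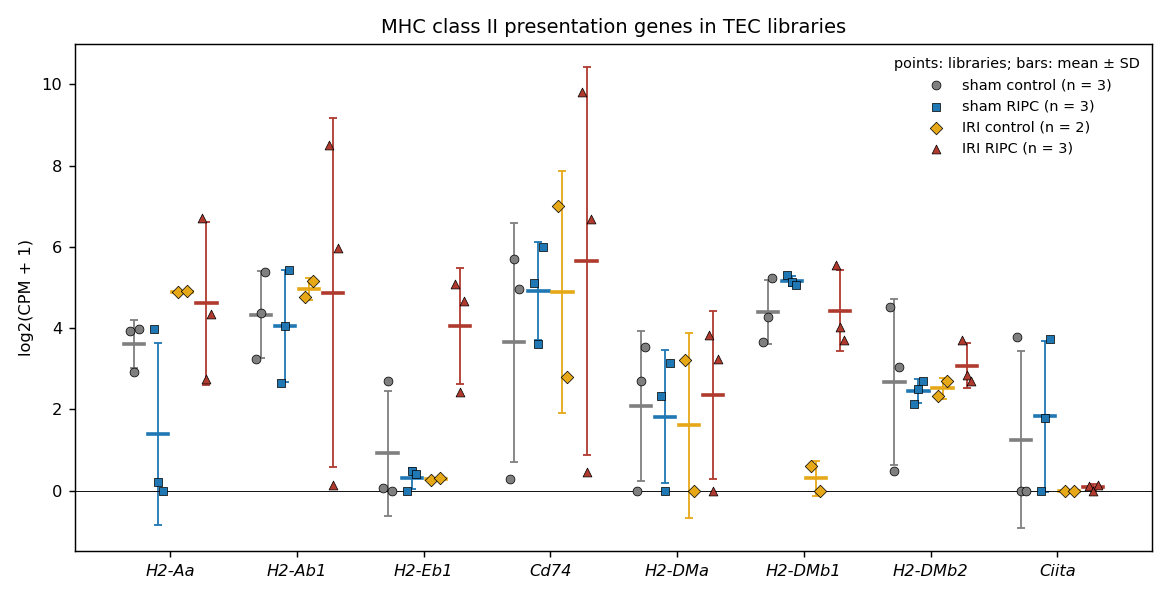
Level of each gene in the TEC libraries, as log2(CPM + 1), with a point for each library, by group (sham control n = 3, sham RIPC n = 3, IRI control n = 2, IRI RIPC n = 3) and the mean ± SD. The libraries of a group spread widely for Cd74 and H2-Ab1, and H2-DMb1 is close to 0 in the 2 IRI control libraries only.

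IRI gave no called class II gene in TECs. Averaged over RIPC and control, edgeR called 363 of 25917 genes (1.4%) and 0 of the 8, and 2 of the 8 and 3893 of all had p under 0.05 before adjustment, while DESeq2 called 2 of the 8 and 2234 of all. The 2 genes were the same by both tests, H2-DMb1 and Ciita, and both were lower after IRI: H2-DMb1 had a log2 fold change of -3.43 ± 0.942 SE (edgeR adjusted p = 0.0993), and Ciita, read at most 2 times in an IRI library, an edgeR adjusted p of 0.259. The sum of H2-DMb1 and H2-DMb2 fell less, with a log2 fold change of -1.48 ± 0.593 SE (edgeR adjusted p = 0.267). Cd74 had a log2 fold change of 2.26 ± 1.27 SE (adjusted p = 0.433), H2-Aa of 2.21 ± 1.21 SE (adjusted p = 0.421) and H2-Ab1 of 1.58 ± 1.04 SE (adjusted p = 0.527). Within the arms edgeR called 1 of all genes without RIPC (0.00386%) and 25 with RIPC (0.0965%), and 0 of the 8 in both, with 1 of the 8 at p under 0.05 before adjustment in each (2226 and 2293 of all) and 2 and 1 called by DESeq2 (1317 and 1013 of all). The difference between the IRI effect in TECs and that in PMNs was tested in a fit over all libraries, a comparison added after the values were known. It was 5.41 ± 1.42 SE for H2-Aa, 5.33 ± 1.34 SE for H2-Ab1, 5.16 ± 1.44 SE for H2-Eb1 and 4.99 ± 1.61 SE for Cd74 on the log2 scale, and edgeR called 0 of the 8 and 0 of all genes (0%), with adjusted p from 0.188 to 0.310 for these 4. Before adjustment 5 of the 8 and 3102 of all genes had p under 0.05, and DESeq2 called 5 of the 8 and 2395 of all. By both tests these 5 were the 4 genes just given and Ciita. Ciita went the other way (-5.79 ± 2.73 SE), a value that rests on TEC IRI libraries with at most 2 of its reads. Leaving out PMN sham control replicate 1 gave 2 calls, and leaving out TEC sham control replicate 2, TEC sham RIPC replicate 1 or TEC IRI RIPC replicate 2 gave 1 each. For H2-DMb1 the difference was -0.35 ± 0.920 SE (adjusted p = 1.00). For the sum of H2-DMb1 and H2-DMb2, which is free of the split of shared reads, it was 1.46 ± 0.695 SE (edgeR adjusted p = 0.508).

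**Figure D4:**
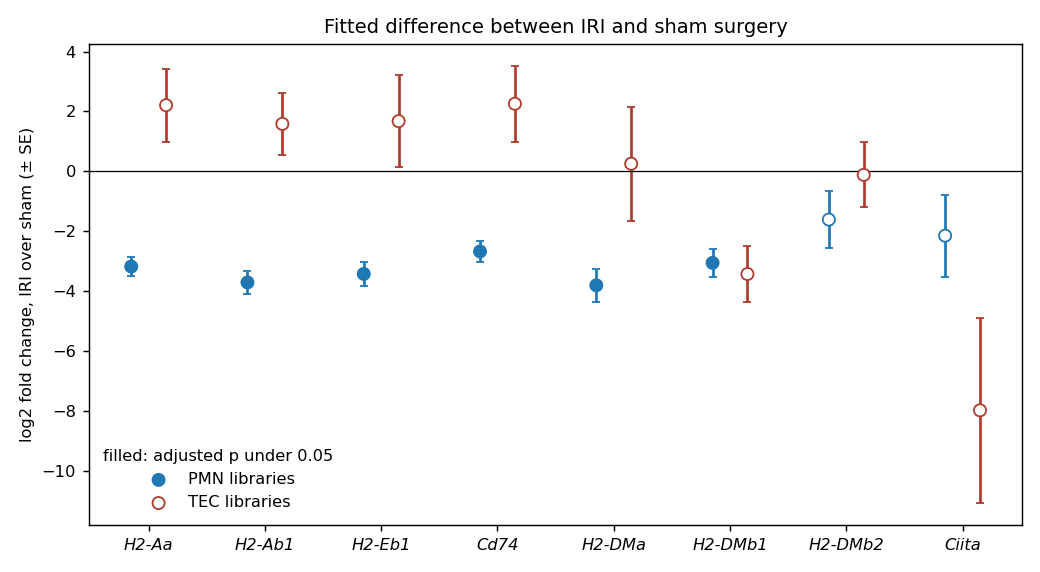
Fitted log2 fold change of IRI over sham surgery, averaged over RIPC and control, with its SE, for each gene in PMNs (blue) and TECs (red), filled where the edgeR adjusted p is under 0.05. In PMNs 6 of the 8 genes are filled and all lie below 0, and in TECs none is filled and the SE is wider, with the Ciita value there fitted to IRI libraries of 0 to 2 reads and so not a measured fold.

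RIPC did not move the genes past the test in TECs. After sham surgery edgeR called 0 of the 8 and 0 of all genes (0%), none of the 8 had p under 0.05 before adjustment, and DESeq2 called 0 of them. After IRI, where edgeR called 1 of all genes (0.00386%), 0 of the 8 were called, and DESeq2 called 2 of the 8 and 699 of all. H2-DMb1, the gene with the smallest p there, had 13 and 0 reads in the IRI control libraries against 1183, 331 and 254 in the IRI RIPC libraries. The sham control TEC libraries held 269, 666 and 932 of its reads, and the sham RIPC ones 971, 850 and 697, so the IRI control libraries were those that stood apart. The log2 fold change of RIPC over control after IRI was 6.49 ± 1.66 SE (edgeR adjusted p = 0.652; DESeq2 called it, at an adjusted p of 2.97e-07), and that of IRI over sham without RIPC was -6.35 ± 1.65 SE (edgeR adjusted p = 0.261; DESeq2 8.17e-07). H2-DMb2 had 502, 14 and 186 reads in the sham control libraries, 85, 117 and 119 in the sham RIPC libraries, 100 and 115 in the IRI control libraries and 308, 135 and 115 in the IRI RIPC libraries. For the sum of both genes the IRI effect without RIPC was -2.67 ± 0.947 SE (edgeR adjusted p = 0.475, DESeq2 0.00309). The RIPC effect after IRI on that sum was 2.68 ± 0.947 SE (edgeR adjusted p = 0.778, DESeq2 0.00196). Of the alternatives run for these RIPC effects after IRI, only DESeq2's test passed. DESeq2 was also the study's own method, there with shrunken fold changes and S values. The paper lists H2-DMb1 among genes significantly upregulated in tubular cells when RIPC preceded IRI, a call that the edgeR test did not make here. Whether RIPC acted differently after each surgery was tested as in PMNs, and edgeR called 0 of the 8 genes and 0 of all (0%), with 2 of the 8 and 1869 of all at p under 0.05 before adjustment, and DESeq2 called 3 of the 8 and 597 of all.

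The other pathway genes gave no call in TECs after IRI either, with or without RIPC. Ctss had 0 reads in both IRI control libraries and 554, 319 and 203 reads in the IRI RIPC libraries, a pattern like that of H2-DMb1 (edgeR adjusted p = 0.778 for RIPC over control). Rfxank, a subunit of the X box factor RFX, stood at 13.8 to 43.9 CPM after sham surgery and 3.35 to 7.46 CPM after IRI without overlap (adjusted p = 0.180). All IRI libraries lay below all sham libraries for 818 of the 25917 genes tested in TECs (3.16%). Between the cell types, 5 of the 16 tested genes of the pathway were called: Ctss, Ifi30 and March1 were lower in TECs (log2 fold changes -11.07, -2.85 and -8.99), and Ctsl and March8 were higher (1.24 and 4.78).

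TEC IRI RIPC replicate 1, with the most class II reads, also had the most class I reads. B2m stood at 1078 CPM in it and at 155 to 411 CPM in the other 4 IRI libraries, and H2-D1 stood at 1687 CPM against 95.7 to 426 CPM. Its summed macrophage and monocyte markers were 236 CPM, within the 118 to 254 CPM of the other IRI libraries, and its B cell markers were 9.86 CPM, also within their range. It had the highest sums of the 5 IRI libraries for neutrophil markers (110 CPM, others 35.3 to 88.4), erythrocyte genes (842 CPM, others 79.0 to 711), interferon gamma signalling (335 CPM, others 80.0 to 253) and costimulation (59.0 CPM, others 16.5 to 57.9). The part of these in its class II levels was not tested. Without this library edgeR called 0 of the 8 genes in each TEC comparison it entered. By the likeness rule used for PMNs, B2m was also the gene most like the 4 genes over the 11 TEC libraries (r = 0.927), followed by Gm3924, Pdp1, Gm10649, Gm20743, Cd209g, Trav3d-3, Nrg2, Kdelr3 and Sh3bp2 (r = 0.887 for the last). These 11 points include this library of high values, and most of the 10 genes had a median at or near 0 CPM in the sham libraries.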

How the data were processed

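Per the labels and the study's methods, the authors made full-length cDNA libraries, trimmed reads with Trim Galore 0.6.4 and quantified them with Salmon 1.0.0; the deposited values are estimated counts and TPM per transcript, in 2 files per library. Counts were added over a gene's transcripts (matched to a Gencode annotation of GRCm38) and over both files, and rounded. TPM was used only to compare genes. Comparisons used edgeR 4.0.16 (quasi-likelihood, TMM, low-count filter by group, R 4.3.3) over all 4 groups of a cell type or all 21 libraries, with Benjamini-Hochberg adjustment over all genes tested and a threshold of 0.05, without sex-chromosome and mitochondrial genes. The method was tested on simulated data. Within-library ratios had exact permutation tests. DESeq2 1.42.0, other filters, scalings, leave-outs and a replicate block were alternatives.

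The 8 genes and the lists were chosen with earlier results of these data known. Named genes were all 8 members and, per pathway list and comparison, those called plus up to 4 with the smallest p, and per cell type the 10 genes of highest r; named cell type markers were chosen after their values were seen. The cell type difference was added after the data were seen. The sample labels do not say whether libraries of a group come from separate mice. The paper gives 3 biological replicate libraries for each group, and states that n counts animals in its in vivo experiments. The sham control and IRI control groups of PMNs and the IRI control group of TECs held fewer libraries here. The p-values measure the spread between these libraries. A count of 3 reads or fewer was taken as not detected.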

Additional observations from a re-analysis of the deposited data

How the results depend on the processing

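Counts are of the 8 genes called. Under IRI against sham in PMNs, averaged, 6 were called and leaving out each library in turn gave 0 to 6. Without RIPC (0 called), no filter on low counts gave 5, DESeq2's Wald test 5 and leave-outs 0 to 2. With RIPC (4 called), fitting the compared groups alone gave 2, DESeq2 7 and leave-outs 0 to 2. In TECs, where 0 were called, IRI against sham without RIPC gave 1 with no filter and 2 with DESeq2, with RIPC 1 and 1, and averaged 2 and 2, with leave-outs of 0 to 1. DESeq2 gave 2 for RIPC after IRI and 3 for the interaction in TECs. The added difference between cell types (0 called) gave 5 with no filter, 5 with DESeq2 and 0 to 2 in leave-outs. TECs against PMNs (7 called) gave 6 to 7 in leave-outs and 0 where 10 counts were required in every library, since that filter left 1 of the 8 genes to test. The cause of the other shifts was not tested.

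Libraries of different groups with one replicate number shared only that number, with a median correlation of their deviations of 0.00364 in PMNs and -0.0135 in TECs. With a replicate block, 0 were called in PMNs with RIPC, 4 in PMNs averaged, 5 in TECs against PMNs and 1 in the difference between cell types.

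With 2 or 3 libraries a group and a biological coefficient of variation of 1.65 in PMNs and 1.54 in TECs, low genes such as Ciita and H2-DMb2 could be compared only coarsely.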
